A study of Equus caballus with 68 samples.

Results

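The 16 libraries described here are those of bone marrow mononuclear cells (BMNC) after 96 hours and after 6 days in inflamed synovial fluid (ISF), 8 libraries at each time point and 1 from each of 8 horses, out of 68 libraries in the whole series. They were picked out by fluid and time point, without a rule on expression values, although earlier results of these data were known. The horses were skeletally mature Thoroughbreds of 3 to 9 years, 6 geldings and 2 mares, free of joint disease. Synovitis had been induced in their radiocarpal joints with lipopolysaccharide, the cell wall component of Gram-negative bacteria, and the ISF was freed of its own cells before use. Normal synovial fluid (SF) came from healthy joints of the same horses, and SF cultures at the same 2 time points (16 libraries) serve here as the comparison. Each horse's cells were cultured on their own in undiluted fluid from that horse, the fluid was topped up every 48 hours, and 1 well per condition was sequenced. A library therefore stands for 1 well, and the spread within a group includes differences between horses, their fluids and their wells. The study followed BMNC in both fluids to ask how marrow cells respond to acute joint inflammation over time, and the comparison of consecutive time points within a fluid asks which genes change during each interval.

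BMNC are a mixture of immature and maturing myeloid cells, lymphocytes and progenitors, and during adherent culture the surviving cells become largely macrophages. Macrophages take up debris and lipids, attach to matrix through integrins, release proteases and cytokines, and adapt their metabolism to oxygen and nutrient supply. When oxygen is scarce, or when inflammatory stimuli stabilise hypoxia-inducible factors, cells raise glucose transporters, glycolytic enzymes, prolyl hydroxylases and mitophagy genes. Granule enzymes such as elastase and myeloperoxidase are transcribed mainly by neutrophil precursors in the marrow. In bulk RNA, fewer cells of a type and less RNA per cell cannot be told apart, and this holds for each change below.

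Levels are given as GeTMM, a read count divided by gene length and scaled between libraries, so that levels of different genes can be set side by side. The 8 libraries at 96 hours held 16.9M to 25.2M reads on genes (median 20.3M) and those at 6 days 20.8M to 27.4M (median 24.4M), with the deeper library at 6 days in 6 of 8 horses. In a check of each library against the horse profiles of the other groups over 200 genes, 66 of 68 libraries resembled their own horse most. The exceptions were the ISF libraries labelled Dealings and Dreamer at 96 hours, which correlated best with Dreamer (0.94) and Dealings (0.92), so paired counts are also given over the other 6 horses. The SF library of Moon at 6 days stood apart, with a GeTMM sum of 2321900 against 905670 to 1101200 in the other 6 day libraries of both fluids, and it entered the shared estimate of the spread. Macrophage markers were present in all 16 ISF libraries, with a summed level of 14136 to 100580 GeTMM over 8 genes at 96 hours and 15231 to 100550 at 6 days. CPA3, a mast cell protease, was listed at 0 in every ISF library at 6 days, and the endothelial receptor KDR at both time points.

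Between 96 hours and 6 days, 929 of 14570 tested genes changed in ISF at a false discovery rate (FDR) under 0.05, which is 6.38% of the genes tested. Of these, 413 (2.83%) were higher and 516 (3.54%) lower at 6 days. An unadjusted p under 0.05 was found for 2890 genes (19.8%). At least a doubling or halving was seen for 71 of the higher and 169 of the lower genes, and the median absolute log2 fold change of the called genes was 0.70. The direction was shared by the 6 horses with undoubted labels for 824 of the 929 genes and by all 8 horses for 732. The 8 values at 6 days lay wholly above the 8 values at 96 hours for 38 genes (0.261%) and wholly below them for 77 genes (0.528%). With a term for horse the count was 1552, and it was 1518 with that term and without the doubted libraries. With that term in the 16 libraries alone it was 2694, and in the 12 libraries of the 6 other horses 2186, so list counts are also given from the horse-term fits of 68, 16 and 12 libraries. Of all 14570 genes these 3 fits called 724, 1345 and 1074 higher and 828, 1349 and 1112 lower. List counts from those fits are to be read against these totals, not against 2.83% and 3.54%. Counts over 8 horses include the doubted pairs of Dealings and Dreamer, and each of the 30 named genes moved the same way in the other 6 by the rule that chose it. Of the genes described below, the horse-term fit of 12 libraries also lost the calls of TGM3 (FDR = 0.0527), GADD45A (FDR = 0.0697), MET (FDR = 0.0681), NPC2 (FDR = 0.0504), PSAP (FDR = 0.0882), PKM (FDR = 0.0537) and XYLT2 (FDR = 0.0872), and the fit without the doubted libraries those of CIITA (FDR = 0.161), HK1 (FDR = 0.0606), PGAM1 (FDR = 0.0652), MMP25 (FDR = 0.0651) and NDST1 (FDR = 0.0829). Leaving out a horse in turn gave 422 genes without Ollie, 433 without RimRun, 575 without Dreamer, 604 without Lurie, 668 without Dealings, 669 without Catnip, 724 without Flash and 1444 without Moon. The plot of change against level shows that the falls reached further than the rises.

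**Figure D1:**
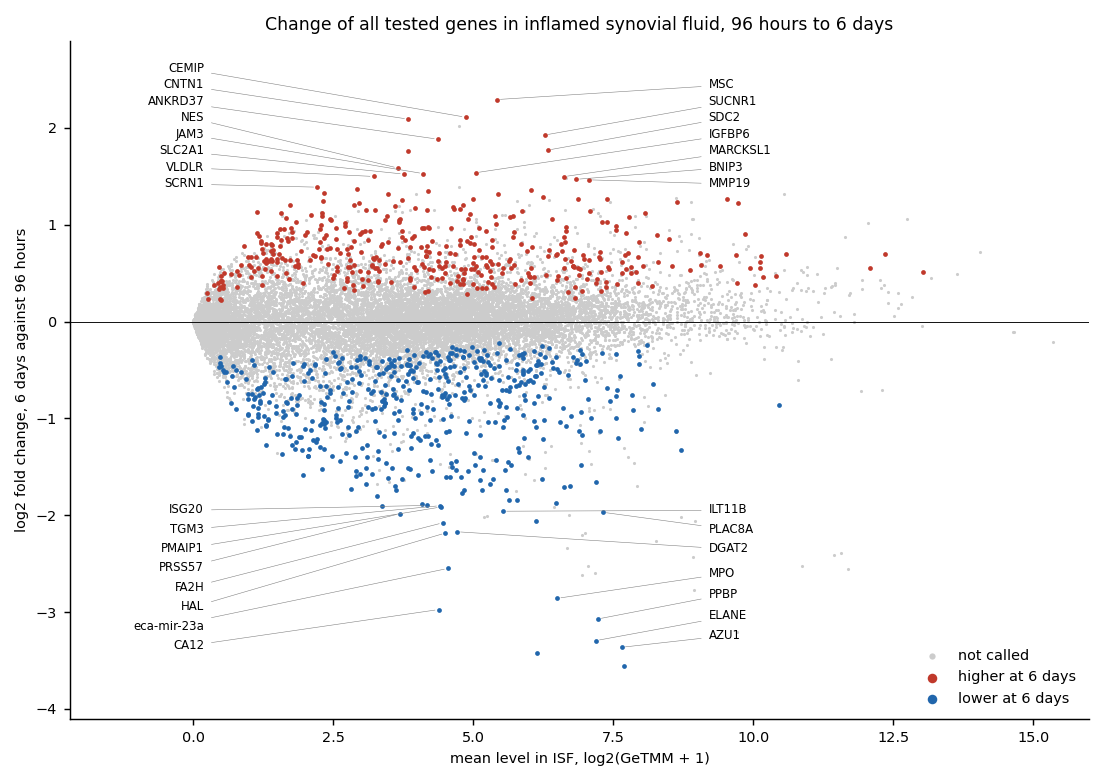
Log2 fold change from 96 hours to 6 days in ISF (y axis) against the mean level in ISF on the log2(GeTMM + 1) scale (x axis) for 14570 genes. Red and blue points are the 413 higher and 516 lower genes, grey points were not called, and the 30 named genes are labelled. The falls of AZU1, ELANE and PPBP pass -3, while the highest named rise, of MSC, is 2.29. The blue points without a label near and below AZU1 are entries with no symbol.

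The genes that rose most were not of a single kind. Under the rule for named genes, MSC (musculin, ENSECAG00000008333), a helix-loop-helix transcription factor, was at 2.17 to 27.9 GeTMM (median 7.48) at 96 hours and 11.4 to 169.7 (median 63.7) at 6 days, the highest rise of the named genes. It was higher at 6 days in 8 of 8 horses, with a log2 fold change of 2.29 ± 0.41 (SE), FDR = 0.000247, and its level at 6 days ranged from 11.4 in Flash to 169.7 in RimRun. CEMIP (ENSECAG00000018674), a protein that binds and helps depolymerise hyaluronan, the main polymer of synovial fluid, was at 1.26 to 26.7 GeTMM (median 4.96) at 96 hours and 2.6 to 125 (median 37.5) at 6 days. The groups overlapped, and the change (2.11 ± 0.58 (SE), FDR = 0.0171) was in the same direction in 8 of 8 horses. CNTN1 (ENSECAG00000011240), an adhesion molecule of the immunoglobulin family best known from neurons, was at 0.628 to 13.3 GeTMM (median 1.94) at 96 hours and 2.18 to 70.4 (median 16.2) at 6 days (2.09, FDR = 0.00279).

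SUCNR1 (ENSECAG00000024345), the receptor for extracellular succinate, was at 4.82 to 72.9 GeTMM (median 29.7) at 96 hours and 50.3 to 217 (median 118) at 6 days. Its level rose in 8 of 8 horses (1.93 ± 0.40 (SE), FDR = 0.00163), and 5 of the 8 values at 6 days lay above every value at 96 hours. SDC2 (ENSECAG00000008484), a heparan sulfate proteoglycan of the cell surface, was at 3.53 to 103 GeTMM (median 33.2) at 96 hours and 21.9 to 341 (median 103) at 6 days (1.77, FDR = 0.0167), with the highest level at 6 days in Ollie. NES (ENSECAG00000016987), the intermediate filament nestin, and JAM3 (ENSECAG00000015550), a junctional adhesion molecule that leukocytes bind, rose by 1.59 (FDR = 0.000559) and 1.53 (FDR = 8.18e-05). The means went from 5.73 ± 4.14 to 17.5 ± 8.68 GeTMM for NES and from 7.76 ± 3.4 to 24.8 ± 11.2 GeTMM for JAM3 (SD, n = 8), and both were higher in 8 of 8 horses.

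Among the named genes that rose, 2 of 15 had groups that did not overlap, against 0.261% of all tested genes. The 15 were chosen for large changes in these same data, so the 2 shares are not compared. VLDLR (ENSECAG00000021859), a lipoprotein receptor, was at 1.61 to 4.96 GeTMM (median 3.9) at 96 hours and 4.97 to 20.7 (median 12.9) at 6 days (1.50 ± 0.28 (SE), FDR = 0.000333). MARCKSL1 (ENSECAG00000040546), an actin-regulating protein, was at 24.2 to 78.4 GeTMM (median 49.4) at 96 hours and 93.8 to 289 (median 119.9) at 6 days (1.50 ± 0.25 (SE), FDR = 0.00012). MMP19 (ENSECAG00000010967), a matrix metalloproteinase that macrophages make, was at 35.6 to 119 GeTMM (median 75.9) at 96 hours and 106 to 288 (median 184) at 6 days (1.46 ± 0.27 (SE), FDR = 0.000352), and 7 of the 8 values at 6 days lay above every value at 96 hours. IGFBP6, a binding protein for insulin-like growth factors, and SCRN1, secernin, rose by 1.54 (FDR = 0.0229) and by 1.39 (FDR = 0.0187), IGFBP6 in 7 of 8 horses and SCRN1 in 8 of 8. The call was lost for CEMIP without Dreamer, Ollie or RimRun (FDR of 0.0547 to 0.128), for SDC2 without Dreamer or RimRun (FDR of 0.0585 to 0.0646), for IGFBP6 without Dreamer, Ollie or RimRun (FDR of 0.0652 to 0.146) and for SCRN1 without Dreamer, Lurie or RimRun (FDR of 0.0608 to 0.126).

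**Figure D2:**
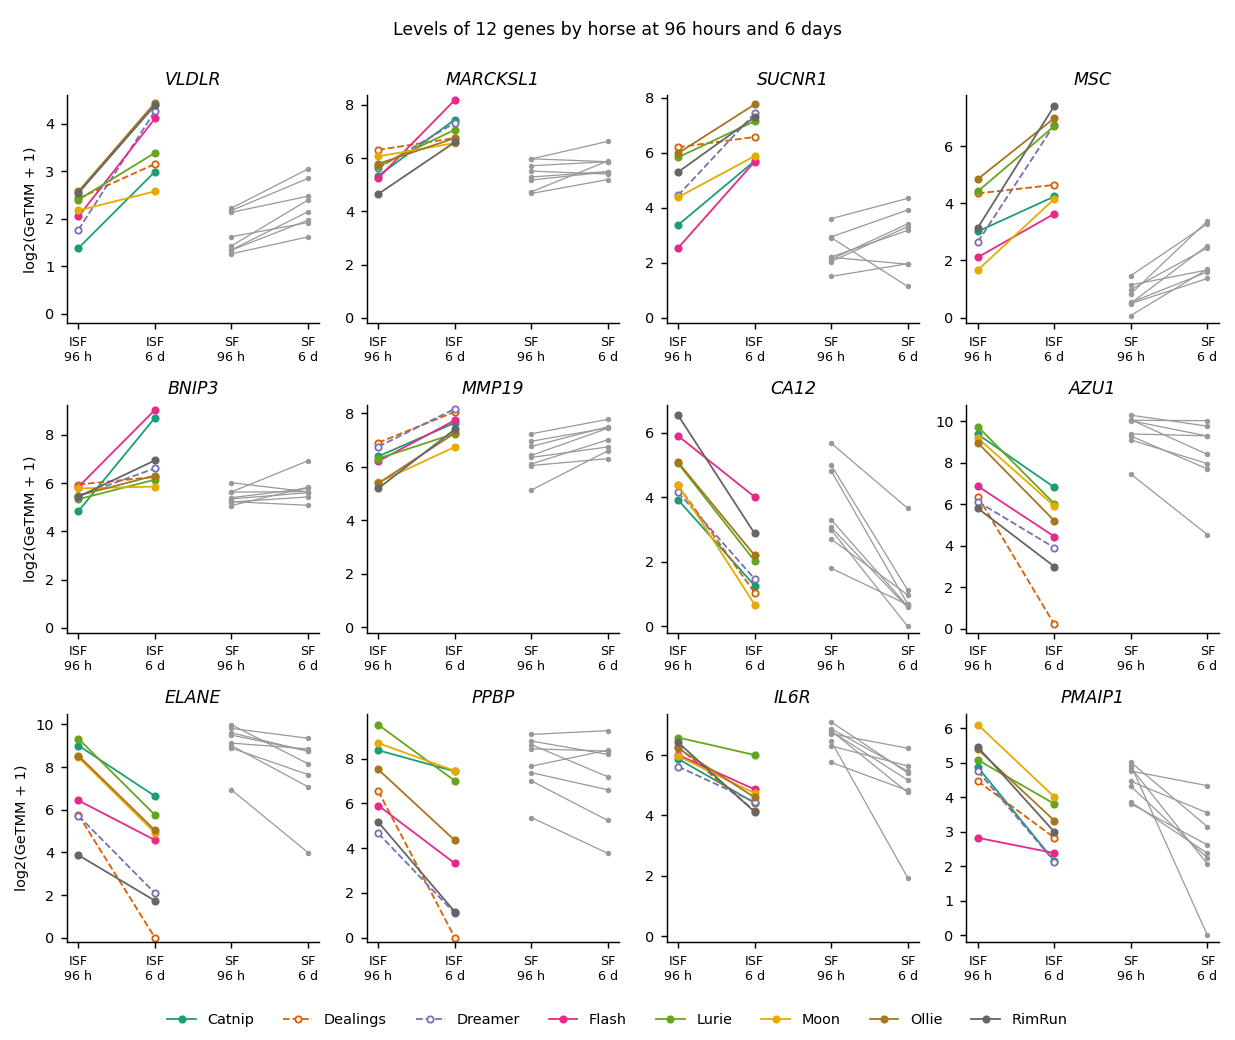
Level of 12 genes on the log2(GeTMM + 1) scale (y axis) at 96 hours and 6 days in ISF (coloured lines, 1 per horse) and SF (grey lines, 1 per horse). Dashed lines with open points mark Dealings and Dreamer, whose ISF libraries at 96 hours are in doubt. BNIP3 rose most steeply in Catnip and Flash, while AZU1, ELANE and PPBP fell furthest in Dealings.

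Genes of the response to hypoxia were higher at 6 days. Of the 33 genes on this list, all tested, 10 rose (30.3% against 2.83% of all genes) and 1 fell. The median log2 fold change was 0.60 against -0.0007 over all genes. Members of this and the other lists were chosen with earlier results of these data known. The list shares here and below are therefore description and not a test. The 10 were BNIP3, EGLN3, P4HA1, SLC2A1, HILPDA, P4HA2, LOX, FAM162A, VLDLR and ANKRD37, and 30 of the 33 estimates were above 0. BNIP3 (ENSECAG00000017458), which marks mitochondria for removal, was at 27.7 to 60.5 GeTMM (median 43.6) at 96 hours and 57 to 525.7 (median 87.8) at 6 days (1.47 ± 0.36 (SE), FDR = 0.00684). The 2 highest values, 525.7 in Flash and 419 in Catnip, were far above the other 6, which reached at most 122. SLC2A1 (ENSECAG00000000303), the glucose transporter GLUT1, was at 1.97 to 10.2 GeTMM (median 3.87) at 96 hours and 4.51 to 61.8 (median 12.9) at 6 days (1.52 ± 0.38 (SE), FDR = 0.00885), with the same 2 horses highest. ANKRD37, an ankyrin repeat protein, was at 1.38 to 13.2 GeTMM (median 3.66) at 96 hours and 3.55 to 113 (median 14) at 6 days (1.88 ± 0.48 (SE), FDR = 0.0102), again highest in Catnip and Flash.

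Collagen-modifying enzymes were among the called members. P4HA2 (ENSECAG00000024817), a subunit of collagen prolyl 4-hydroxylase, was at 13.3 to 23.2 GeTMM (median 17.2) at 96 hours and 28.3 to 57.5 (median 45.2) at 6 days (1.27 ± 0.22 (SE), FDR = 0.000141), with no overlap between the groups. LOX, which crosslinks collagen, was at 2.64 to 10 GeTMM (median 7.31) at 96 hours and 9.54 to 31.9 (median 15) at 6 days (1.26 ± 0.29 (SE), FDR = 0.00395), and both calls held in each of the 22 alternative settings run. P4HA1, the other catalytic subunit, rose from 120.5 ± 32.6 to 250.2 ± 135 GeTMM (0.94, FDR = 0.00968). EGLN3, an oxygen-sensing prolyl hydroxylase, HILPDA, a lipid droplet protein, and FAM162A, a mitochondrial protein, rose by 1.29 (FDR = 0.0261), by 0.80 (FDR = 0.0236) and by 0.88 (FDR = 0.0373). VEGFA and ADM, both secreted hypoxia targets, were not called (0.28, FDR = 0.789, and 0.88, FDR = 0.286). CA12 (ENSECAG00000017217), a membrane carbonic anhydrase on the same list, went the other way, at 14.1 to 91.6 GeTMM (median 25.8) at 96 hours and 0.593 to 15.1 (median 2.42) at 6 days (-2.97 ± 0.45 (SE), FDR = 2.39e-05).

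The mean of the hypoxia list on the log2(GeTMM + 1) scale was 3.93 to 4.58 (median 4.23) at 96 hours and 4.15 to 6.32 (median 4.53) at 6 days. It rose by 1.74 in Flash and 1.72 in Catnip, by 0.56 in RimRun, and by 0.06 to 0.18 in Ollie, Lurie and Moon. The changes of 0.53 in Dreamer and -0.02 in Dealings rest on the doubted libraries. The number of members called higher was 3 without Catnip, 7 without Flash or RimRun, and 8 to 13 with any other horse left out. Without the doubted libraries it was 8. With a term for horse it was 13, 14 and 10 in the fits of 68, 16 and 12 libraries, and 13 with that term and without the doubted libraries. The calls were lost for BNIP3 without Catnip (FDR = 0.0612), for SLC2A1 without Catnip (FDR = 0.0741), for ANKRD37 without Catnip (FDR = 0.0821), for P4HA1 without Catnip (FDR = 0.071), for HILPDA without Catnip, Flash, Lurie or RimRun (FDR of 0.0526 to 0.125), for EGLN3 without Catnip, Dreamer, Flash or RimRun (FDR of 0.0627 to 0.217) and for FAM162A without Catnip, Dreamer, Flash, Lurie, Ollie or RimRun (FDR of 0.0527 to 0.239). In the fit of the 12 libraries of 6 horses with a horse term the calls were lost for BNIP3 (FDR = 0.0552), ANKRD37 (FDR = 0.0556), EGLN3 (FDR = 0.091) and FAM162A (FDR = 0.0722), and without the doubted libraries for EGLN3 (FDR = 0.11) and FAM162A (FDR = 0.0533). EGLN3 was also lost with the horse term and without the doubted libraries (FDR = 0.0532).

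Glycolysis genes, which share SLC2A1 with the hypoxia list, were also higher, with 8 of 21 tested members higher (38.1%) and 1 lower (4.76%, against 3.54% of all genes). The median log2 fold change was 0.54. LDHA, lactate dehydrogenase A, was at 653 to 1018 GeTMM (median 834) at 96 hours and 878 to 2167 (median 1298) at 6 days (0.68 ± 0.15 (SE), FDR = 0.00359). TPI1, triosephosphate isomerase, was at 508 to 814 GeTMM (median 580.2) at 96 hours and 704 to 1499 (median 893) at 6 days (0.68 ± 0.15 (SE), FDR = 0.00264), and both genes were higher at 6 days in 8 of 8 horses. PGK1, PFKP, PGAM1, PKM and HK1, further enzymes of the pathway, rose by 0.40 to 0.69, with FDR from 0.01 (PFKP) to 0.0498 (PGAM1). HK3 (ENSECAG00000016508), a hexokinase found mainly in granulocytes and monocytes, fell by 1.69 on the log2 scale (FDR = 0.0241).

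The glycolysis list mean was 6.82 to 7.38 (median 7.11) at 96 hours and 7.08 to 8.43 (median 7.43) at 6 days, and it rose in 6 of 8 horses and in 5 of the 6 with undoubted labels, by 1.29 in Catnip and 1.19 in Flash. The members called higher numbered 3 without Catnip, 3 without RimRun, 5 without Dreamer, Flash or Lurie, 6 without Ollie, 10 without Dealings and 12 without Moon. Without Moon's SF library alone they numbered 12, without the doubted libraries 6, and with a term for horse 9, 10 and 8 in the fits of 68, 16 and 12 libraries. The calls for LDHA and TPI1 held in each of the 22 alternatives. Of the other members, PGK1 was lost without Catnip or RimRun (FDR of 0.0558 to 0.0876), PFKP without RimRun (FDR = 0.0658), HK3 without Dealings, Flash, Ollie or RimRun (FDR of 0.053 to 0.0964), HK1 without Catnip, Dreamer, Flash, Lurie or RimRun (FDR of 0.0711 to 0.137), PKM without Catnip, Dreamer, Flash, Lurie, Ollie or RimRun (FDR of 0.0693 to 0.186) and PGAM1 without Catnip, Dreamer, Flash, Lurie, Ollie or RimRun (FDR of 0.0645 to 0.169).

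**Figure D3:**
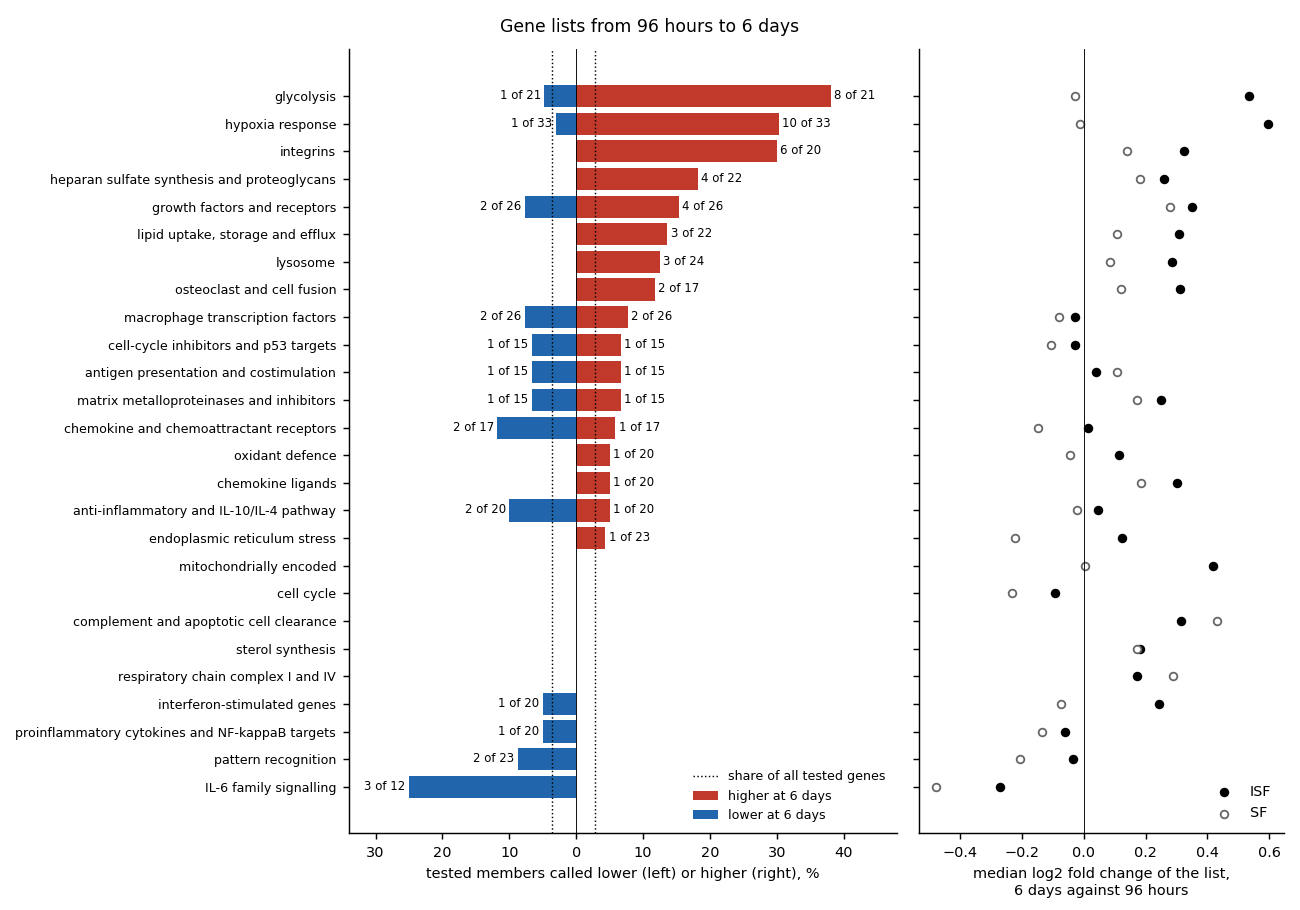
Left, share of the tested members of 26 gene lists called higher (red) or lower (blue) at 6 days in ISF, with the number of members and, dotted, the share of all 14570 genes. Right, the median log2 fold change of each list in ISF (filled) and SF (open). Glycolysis, hypoxia and integrin lists have the largest shares higher, and IL-6 family signalling the largest share lower.

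Other lists of energy metabolism held no called gene in the main fit. None of 33 tested subunits of respiratory complexes I and IV passed the test (median 0.17), none of 13 mitochondrially encoded genes (median 0.42) and none of 23 sterol synthesis genes (median 0.18). Without a term for horse, library weights called 2 respiratory subunits and 2 mitochondrially encoded genes higher. Leaving out Moon, or only its 6 day SF library, called 1 respiratory subunit. The 16 libraries alone and the 30 cultured ISF libraries each called 1 mitochondrially encoded gene. With that term none was called in the fit of 68 libraries. The horse-term fits of 16 and 12 libraries called 2 and 7 respiratory subunits and 2 and 3 mitochondrially encoded genes higher. They called 4 and 1 sterol genes higher and 1 and 2 lower. Of all 14570 genes, the fits of 16 and 12 libraries called 1345 and 1074 higher and 1349 and 1112 lower. Among 22 genes of lipid uptake, storage and efflux, 3 rose (13.6%) and none fell, against 5, 7 and 8 higher and 1 lower in the horse-term fits of 68, 16 and 12 libraries. PPARGC1A, a coactivator of mitochondrial and fatty acid genes, was at 0.476 to 3.24 GeTMM (median 2.34) at 96 hours and 1.43 to 11.9 (median 5.59) at 6 days (1.12 ± 0.26 (SE), FDR = 0.00506). PLIN2, which coats lipid droplets, and SCARB1, a scavenger receptor for lipoproteins, rose by 0.55 (FDR = 0.0147) and by 0.44 (FDR = 0.0483). The PLIN2 call was lost without Catnip or RimRun (FDR of 0.0538 to 0.0576), and the SCARB1 call was lost with any horse other than Moon left out (FDR of 0.0541 to 0.147). Of 24 lysosomal genes, 3 rose (12.5%, against 2.83% of all genes), and 4, 9 and 5 with a term for horse. The 3 were CTSZ, NPC2 and PSAP, with means at 6 days of 5211.7 to 9848.8 GeTMM and log2 fold changes of 0.51 to 0.70. CTSZ, the cathepsin among them, was lost without Dreamer or RimRun (FDR of 0.0563 to 0.0603), NPC2 without Catnip, Dreamer or RimRun (FDR of 0.0523 to 0.0726) and PSAP without Catnip, Dealings, Dreamer, Lurie, Ollie or RimRun (FDR of 0.0609 to 0.16).

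Of the named genes, 2 granule protein genes of neutrophil precursors, AZU1 and ELANE, fell furthest. AZU1 (ENSECAG00000040617), azurocidin, was at 54.4 to 847 GeTMM (median 304) at 96 hours and 0.148 to 111 (median 28.1) at 6 days (-3.36 ± 0.74 (SE), FDR = 0.00262). ELANE (ENSECAG00000009674), neutrophil elastase, was at 13.6 to 642 GeTMM (median 218) at 96 hours and 0 to 98.8 (median 26.1) at 6 days (-3.30 ± 0.73 (SE), FDR = 0.00264), and MPO (ENSECAG00000006662), myeloperoxidase, was at 29.4 to 317 GeTMM (median 132) at 96 hours and 0.158 to 46.3 (median 18.1) at 6 days (-2.86 ± 0.66 (SE), FDR = 0.00397). Each was lower at 6 days in 8 of 8 horses, and the groups overlapped, with a wide range between horses at 96 hours. PRSS57, another granule serine protease, was at 2.69 to 46.1 GeTMM (median 19) at 96 hours and 0 to 13.5 (median 1.75) at 6 days (-1.98 ± 0.51 (SE), FDR = 0.00956). In the library labelled Dealings at 6 days, ELANE and PRSS57 were listed at 0 and AZU1 at 0.15 GeTMM.

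Of the 6 tested precursor markers 3 fell (50%), none rose and the median log2 fold change was -2.64. The members not called were CEBPE (-2.02, FDR = 0.0539), a transcription factor of granulocyte maturation, and the secondary granule genes OLFM4 (-2.27, FDR = 0.129) and LTF (-2.43, FDR = 0.16). The summed level of the 6 genes was 209.78 to 4973 GeTMM at 96 hours and 2.76 to 2393.1 at 6 days. The list mean fell in 8 of 8 horses, by 1.37 to 3.00 on the log2 scale in the 6 with undoubted labels. The fall of 6.48 in Dealings and of 1.37 in Dreamer rest on the doubted 96 hour libraries. With a term for horse all 6 members were lower (FDR of 0.00179 for CEBPE, 0.0217 for LTF and 0.0385 for OLFM4), as they were with that term and without the doubted libraries, whereas that term in the 16 and in the 12 libraries gave 4. Leaving out any horse gave 3 or 4 members. The calls of AZU1 and MPO held in each of the 22 alternatives, and that of PRSS57 was lost without Ollie or RimRun (FDR of 0.065 to 0.0652). In the fit of the 16 libraries alone, without a horse term, the calls of ELANE (FDR = 0.0549) and PRSS57 (FDR = 0.0649) were lost.

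Further genes of granulocytes and of platelets fell with them. PPBP (ENSECAG00000012702), the platelet chemokine precursor, was at 24.3 to 732 GeTMM (median 138) at 96 hours and 0 to 175 (median 14.2) at 6 days (-3.07 ± 0.84 (SE), FDR = 0.0169), and it was lost without Ollie or RimRun (FDR of 0.0592 to 0.0654). MPIG6B and GP9, both platelet membrane receptors, fell by 1.29 (FDR = 0.000909) and 1.57 (FDR = 0.035). With PPBP, 3 of 5 tested platelet markers were lower (60%, against 3.54% of all genes), and 1 of the 5 estimates was above 0. ITGA2B and GP1BA were not called. ITGA2B was under 1 GeTMM in every library at both times, and GP1BA in every library at 96 hours. The summed level over the 6 listed markers was 33.7 to 783.8 GeTMM at 96 hours and 3.63 to 183 at 6 days. The GP9 call was lost without Dealings, Dreamer, Flash, Lurie, Ollie or RimRun (FDR of 0.0507 to 0.132). Of 3 tested mature neutrophil markers 2 were lower (66.7%, against 3.54% of all genes). These were CSF3R, the receptor for granulocyte colony-stimulating factor (-1.63, FDR = 0.021), and MMP25, a leukocyte-anchored metalloproteinase (-1.14, FDR = 0.037). The third, S100P, averaged 5994 ± 2359 to 4125 ± 2314 GeTMM from 96 hours to 6 days (-0.71, FDR = 0.329), and the summed level of the 3 genes was 2377 to 10099 GeTMM at 96 hours and 661 to 8414 at 6 days. CSF3R was lost without Ollie or RimRun (FDR of 0.0767 to 0.0853) and MMP25 without Dealings, Flash, Ollie or RimRun (FDR of 0.0824 to 0.165).

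HAL, histidine ammonia-lyase, FA2H, a fatty acid hydroxylase, TGM3, a transglutaminase, and PLAC8A, recorded under that symbol in the table, fell by 1.90 to 2.18 on the log2 scale, with FDR of 0.0097 to 0.0255. Each was lower in 8 of 8 horses. Their calls were lost for HAL without Dealings, Flash, Ollie or RimRun (FDR of 0.0673 to 0.0887), for FA2H without Ollie or RimRun (FDR of 0.0555 to 0.0777), for TGM3 without RimRun (FDR = 0.0752) and for PLAC8A without Dealings, Dreamer, Flash, Ollie or RimRun (FDR of 0.0502 to 0.102). The highest values at 6 days were 36.1 GeTMM for HAL, 31.3 for FA2H, 42.9 for TGM3 and 206 for PLAC8A.

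DGAT2 (ENSECAG00000024847), the last enzyme of triglyceride synthesis, was at 18.9 to 94.6 GeTMM (median 32.9) at 96 hours and 1.49 to 27.5 (median 7.3) at 6 days (-2.17 ± 0.42 (SE), FDR = 0.000651). PMAIP1 (ENSECAG00000032735), the pro-apoptotic protein NOXA, was at 6.08 to 67.8 GeTMM (median 30.5) at 96 hours and 3.4 to 15.1 (median 6.53) at 6 days (-1.92 ± 0.36 (SE), FDR = 0.000433), and ILT11B, an entry named for the immunoglobulin-like transcript family, was at 33.7 to 107 GeTMM (median 71.3) at 96 hours and 4.86 to 56 (median 16.9) at 6 days (-1.96 ± 0.41 (SE), FDR = 0.0018). The entry for the microRNA precursor eca-mir-23a (ENSECAG00000025656) was at 13.4 to 99 GeTMM (median 33.6) at 96 hours and 0 to 12.4 (median 6.68) at 6 days (-2.55 ± 0.42 (SE), FDR = 6.46e-05), the only one of the 15 named falling genes whose groups did not overlap. Of all tested genes, 0.528% lay wholly lower at 6 days. The eca-mir-23a entry is a short hairpin in a library of longer RNA, so its reads do not measure the mature microRNA. ISG20, an interferon-inducible exonuclease, was at 8.82 to 66.8 GeTMM (median 21.2) at 96 hours and 2.07 to 21.1 (median 3.7) at 6 days (-1.90 ± 0.42 (SE), FDR = 0.00267). The calls of DGAT2, PMAIP1, ILT11B, eca-mir-23a, ISG20 and CA12 held in each of the 22 alternatives.

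Of 20 tested integrin genes 6 rose (30%) and none fell, with a median log2 fold change of 0.32. ITGB1, the beta subunit shared by receptors for collagen, fibronectin and laminin, was at 160.3 to 301 GeTMM (median 211) at 96 hours and 273 to 690.3 (median 372) at 6 days (0.90 ± 0.14 (SE), FDR = 2.39e-05). ITGB7, a beta subunit of leukocyte homing receptors, was at 15.4 to 84 GeTMM (median 28) at 96 hours and 29.3 to 162 (median 103) at 6 days (1.36 ± 0.31 (SE), FDR = 0.00359), and ITGAX, the alpha subunit CD11c of macrophages and dendritic cells, went from 253 ± 83.5 to 471 ± 189.6 GeTMM (0.85, FDR = 0.0134). ITGB3, part of the vitronectin receptor of osteoclasts and platelets, rose by 1.35 (FDR = 0.0176), ITGA5, of the fibronectin receptor, by 0.55 (FDR = 0.0358), and ITGB5 by 0.65 (FDR = 0.0483). The number higher was 2 without Dreamer, 2 without RimRun, 3 without Ollie and 4 to 6 without any other horse, and 6 with a term for horse. The call of ITGB1 held in each of the 22 alternatives and that of ITGB7 in 21. The other calls were lost for ITGAX without Dreamer or RimRun (FDR of 0.0713 to 0.0742), for ITGB3 without Dreamer, Lurie, Ollie or RimRun (FDR of 0.0546 to 0.0903), for ITGA5 without Catnip, Dreamer, Ollie or RimRun (FDR of 0.0638 to 0.156) and for ITGB5 without Catnip, Dealings, Dreamer, Flash, Ollie or RimRun (FDR of 0.0827 to 0.134).

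Heparan sulfate and matrix genes included further called members. Of 22 heparan sulfate genes 4 rose (18.2%), SDC2, SDC4, NDST1 and XYLT2, the last of which starts the chain (0.36, FDR = 0.0487). In the horse-term fits of 68, 16 and 12 libraries 5, 6 and 5 were higher. SDC4, a syndecan of focal adhesions, was at 13.2 to 33.1 GeTMM (median 20.2) at 96 hours and 23.4 to 49.8 (median 42.8) at 6 days (0.87 ± 0.25 (SE), FDR = 0.0245), and NDST1, which adds N-sulfate groups, rose by 0.79 (FDR = 0.0368). SDC4 was lost without Dreamer, Flash, Lurie, Ollie or RimRun (FDR of 0.0627 to 0.102), NDST1 without Dreamer, Lurie, Ollie or RimRun (FDR of 0.0959 to 0.188) and XYLT2 without Dealings, Dreamer, Flash, Lurie, Ollie or RimRun (FDR of 0.0636 to 0.168). Among 15 metalloproteinases and inhibitors, of which 2, 4 and 4 were higher in the horse-term fits of 68, 16 and 12 libraries, MMP19 rose and MMP25 fell, and MMP12, macrophage elastase, was at 13.1 to 591 GeTMM (median 178) at 96 hours and 60.1 to 4587 (median 1016) at 6 days without passing the test (2.27, FDR = 0.0663), which it passed with a term for horse (FDR = 0.00368). Of 17 osteoclast and cell fusion genes 2 rose (11.8%, against 2.83% of all genes), and 4, 5 and 7 in the horse-term fits of 68, 16 and 12 libraries. The 2 of the main fit were ITGB3 and DCSTAMP, the latter required for cell fusion (1.05, FDR = 0.0196). DCSTAMP was lost without Dreamer, Lurie, Ollie or RimRun (FDR of 0.0573 to 0.102), and CTSK and SIGLEC15 were not called (1.02, FDR = 0.0964, and 1.26, FDR = 0.158), but were with a term for horse (FDR of 0.0341 and 0.0321).

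In the main fit, the IL-6 family, proinflammatory and pattern recognition lists held more called members lower than higher. On the proinflammatory list this was 1 gene (5%, against 3.54% of all genes). That list held 1 gene higher and 1 lower with a pseudocount of 0.1, with voom and without the doubted libraries. In SF the same 3 lists had 3, 2 and 2 of 12, 20 and 23 members called lower, against 1.61% of all genes there, and 0 higher. Their median log2 fold changes there were -0.48, -0.14 and -0.21. Of 12 genes of IL-6 family signalling 3 fell (25%, against 3.54% of all genes), with a median log2 fold change of -0.27. In the horse-term fits of 68, 16 and 12 libraries 3, 8 and 6 were lower, and 0, 1 and 1 higher. IL6R (ENSECAG00000024047), the ligand-binding receptor chain, was at 48.2 to 94.9 GeTMM (median 68.6) at 96 hours and 16.4 to 63.2 (median 22) at 6 days (-1.45 ± 0.30 (SE), FDR = 0.0012), and it fell in 8 of 8 horses. The transcription factors CEBPB and CEBPD fell by 0.91 (FDR = 0.012) and 0.76 (FDR = 0.0147). IL1B, interleukin-1 beta, was at 2.61 to 9.72 GeTMM (median 7.21) at 96 hours and 1.13 to 3.05 (median 2.36) at 6 days (-1.39 ± 0.31 (SE), FDR = 0.00326), the only called gene among 20 proinflammatory cytokines and NF-kappaB targets, against 1, 3 and 4 higher and 2, 4 and 3 lower in the horse-term fits of 68, 16 and 12 libraries. TNF and CCL2 were not called (0.21, FDR = 0.68, and 1.06, FDR = 0.072), with CCL2 averaging 4749.8 ± 2284 to 9004 ± 3128 GeTMM from 96 hours to 6 days and called with a term for horse (FDR = 0.0497).

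Among pattern recognition genes NOD2, a sensor of bacterial peptidoglycan (-0.75, FDR = 0.00852), and NLRC4, an inflammasome sensor (-1.53, FDR = 0.0323), were lower, 2 of 23 tested (8.70%), against 4, 5 and 4 lower and 1, 2 and 2 higher in the horse-term fits of 68, 16 and 12 libraries. NLRC4 was lost without Dealings, Flash, Ollie or RimRun (FDR of 0.0773 to 0.13). The symbol CD14, the lipopolysaccharide co-receptor, is shared by 2 entries and was left out of these counts, and both were higher at 6 days (1.01, FDR = 0.0337, and 0.75, FDR = 0.000837). DUSP1, a phosphatase that limits MAP kinase signalling, was at 68.1 to 156 GeTMM (median 101) at 96 hours and 30.3 to 63.9 (median 49) at 6 days (-1.02 ± 0.22 (SE), FDR = 0.00264). TNFAIP6 (ENSECAG00000012104), an inflammation-induced protein that binds hyaluronan, was at 24.4 to 173 GeTMM (median 106) at 96 hours and 167 to 372 (median 208) at 6 days (1.27 ± 0.38 (SE), FDR = 0.0313) and was lost without Catnip, Dreamer, Flash, Moon or RimRun (FDR of 0.0513 to 0.105). CHI3L1, a chitinase-like glycoprotein of macrophages and neutrophils, fell by 1.43 (FDR = 0.0204) and was lost without Dealings, Flash, Ollie or RimRun (FDR of 0.0594 to 0.11).

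Of the chemokine receptors, CCRL2, an atypical receptor, was at 95.4 to 298 GeTMM (median 134) at 96 hours and 45.6 to 93.3 (median 68.8) at 6 days (-1.14 ± 0.23 (SE), FDR = 0.00157), and CXCR4, the receptor for SDF-1, fell by 0.99 (FDR = 0.0161) and was lower in 6 of 8 horses and in 4 of the 6 with undoubted labels. SUCNR1 was the only member of their list called higher, against 2, 5 and 5 in the horse-term fits of 68, 16 and 12 libraries. CXCL16 (0.55, FDR = 0.0316) was the only called ligand among 20 (5%, against 2.83% of all genes called higher). In the horse-term fits of 68, 16 and 12 libraries 2, 5 and 5 ligands were higher and 0, 2 and 1 lower. CXCR4 was lost without Dealings, Dreamer, Ollie or RimRun (FDR of 0.0502 to 0.0964) and in the horse-term fit of 12 libraries (FDR = 0.138), and CXCL16 without Catnip, Dealings, Dreamer, Flash, Lurie, Ollie or RimRun (FDR of 0.0501 to 0.124). Interferon-stimulated genes other than ISG20 were not called (1 of 20 lower, 5%, against 3.54% of all genes). Their list mean changed by -1.05 in Moon and by 1.92 in Lurie, rising in 2 of the 6 horses with undoubted labels. Among growth factors and receptors HGF, hepatocyte growth factor, was at 6.32 to 20.4 GeTMM (median 14.8) at 96 hours and 13.3 to 52.4 (median 34.4) at 6 days (1.18 ± 0.27 (SE), FDR = 0.00322). TGFBR2, a receptor for TGF-beta, was at 52 to 90.2 GeTMM (median 65) at 96 hours and 96.4 to 124 (median 106) at 6 days (0.69 ± 0.17 (SE), FDR = 0.00731). MET, the HGF receptor, rose by 1.02 (FDR = 0.0167) at a mean of 4.19 GeTMM at 6 days, and AREG, amphiregulin, fell by 0.78 (FDR = 0.023). MET was lost without Dreamer, Lurie, Ollie or RimRun (FDR of 0.0567 to 0.108) and AREG without Dealings, Moon, Ollie or RimRun (FDR of 0.0532 to 0.0888).

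None of 24 cell cycle genes passed the test (median -0.09), and none of 14 genes of complement and apoptotic cell clearance (median 0.31). In the horse-term fits of 68, 16 and 12 libraries 1, 0 and 2 cell cycle genes were lower and 0, 4 and 3 clearance genes higher. CDKN2B, a cyclin-dependent kinase inhibitor, was at 14.3 to 38.7 GeTMM (median 21.9) at 96 hours and 22.5 to 72.7 (median 44.8) at 6 days (0.93 ± 0.23 (SE), FDR = 0.00758), and GADD45A, a damage-inducible gene, fell by 0.69 (FDR = 0.0222). ATF3, a stress-induced transcription factor, rose by 1.15 (FDR = 0.0215), PRDX6, a peroxiredoxin, by 0.82 (FDR = 0.0201), and CD80, a costimulatory ligand, by 0.83 (FDR = 0.0266), whereas CIITA, the regulator of MHC class II genes, fell by 0.73 (FDR = 0.0415). The calls were lost for GADD45A without Dealings, Dreamer, Lurie, Ollie or RimRun (FDR of 0.0517 to 0.113), for ATF3 without Dreamer or RimRun (FDR of 0.0558 to 0.0573), for PRDX6 without Catnip, Dreamer, Flash, Ollie or RimRun (FDR of 0.0536 to 0.101), for CD80 without Catnip, Dreamer, Ollie or RimRun (FDR of 0.0602 to 0.128) and for CIITA without Catnip, Dreamer, Flash, Lurie or Ollie (FDR of 0.059 to 0.161). CEBPB and CEBPD, given above, were lost without Dealings or Ollie (FDR of 0.0564 to 0.0772) and without Dreamer, Lurie or Ollie (FDR of 0.0527 to 0.101).

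Markers of the cell types that the wells could hold were checked beside these changes. Of 8 macrophage markers only MSR1, a scavenger receptor, was called (12.5%, against 2.83% of all genes called higher). In the horse-term fits of 68, 16 and 12 libraries 1, 3 and 3 were higher. MSR1 was at 182 to 842 GeTMM (median 526.1) at 96 hours and 548 to 1725 (median 1254) at 6 days (1.22 ± 0.31 (SE), FDR = 0.00838). Of the 8 estimates 7 were above 0 (median 0.33). CD163 and TREM2 were not called (0.23, FDR = 0.858, and 0.54, FDR = 0.228). None of 7 T cell markers (median -0.57) or 7 B and plasma cell markers (median -0.56) passed the test in the main fit. Without a term for horse, 2 B and plasma cell markers were lower in the 16 libraries alone. A pseudocount of 0.1, the 30 cultured ISF libraries and library weights each gave 1. In the horse-term fits of 68, 16 and 12 libraries 2, 3 and 3 B and plasma cell markers were lower. In the same fits 0, 2 and 1 T cell markers were lower and 0, 1 and 1 higher. Of 6 natural killer markers 1 was lower (16.7%, against 3.54% of all genes), NCR1, which fell by 1.64 (FDR = 0.00267). FLT3, a receptor of progenitors and dendritic cells, fell by 0.79 (FDR = 0.0319) and was lost without Dealings, Dreamer, Lurie, Ollie or RimRun (FDR of 0.0632 to 0.114). None of 5 erythroid, 3 mast cell and basophil or 4 endothelial markers was called, nor any of 8 stromal markers (median 0.58), and with a term for horse this changed only for 1 endothelial marker, lower in the fits of 16 and 12 libraries. The stromal list mean rose by 2.01 in Ollie and moved by -0.06 to 0.91 in the other 5 horses with undoubted labels, with COL1A1, a fibrillar collagen gene, at 21.1 GeTMM in Ollie at 6 days. The part of these markers in the changes above was not tested.

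**Figure D4:**
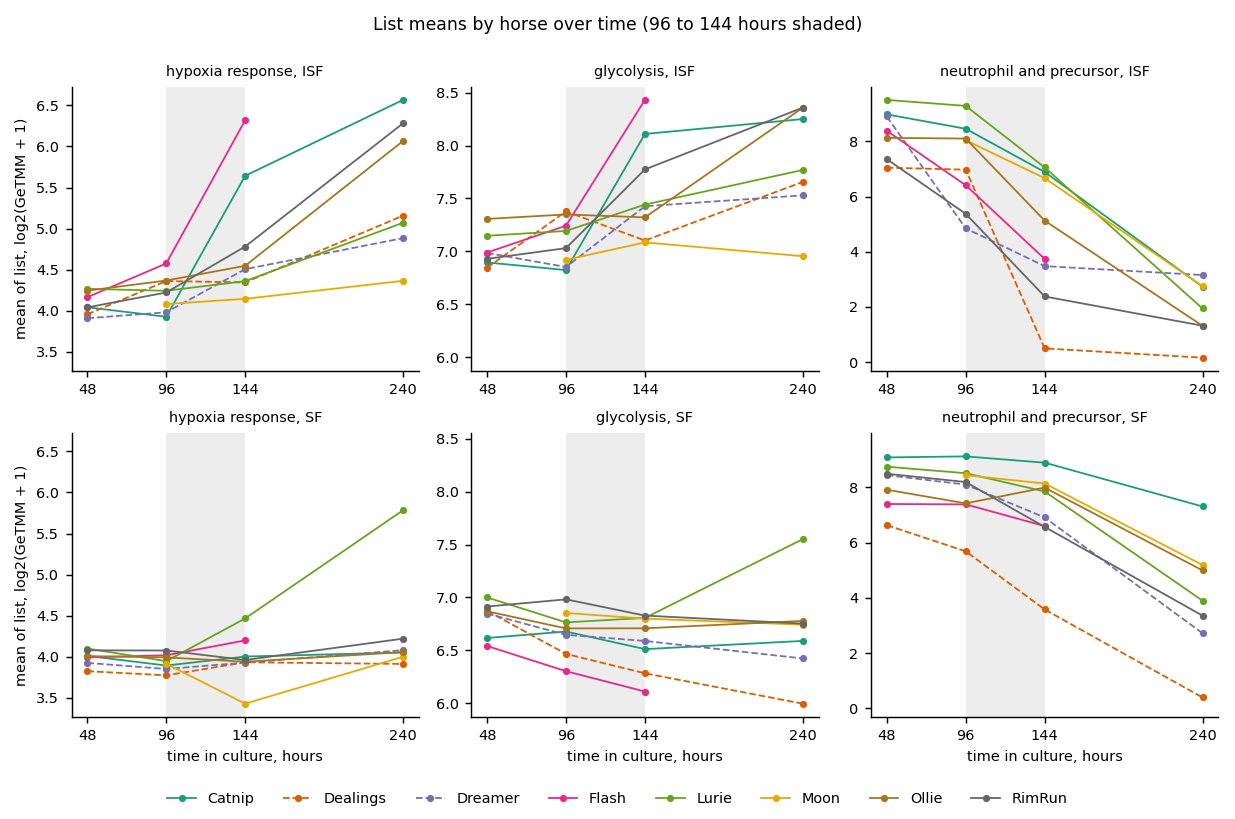
Mean of the hypoxia, glycolysis and neutrophil precursor lists on the log2(GeTMM + 1) scale (y axis) for each horse over time in culture in hours (x axis), in ISF (top) and SF (bottom), with the interval from 96 hours to 6 days shaded and Dealings and Dreamer dashed. In ISF the hypoxia mean at 6 days is 6.32 in Flash and 5.64 in Catnip, above 4.15 to 4.78 in the other horses. Precursor means in ISF fall from 4.85 to 9.29 at 96 hours to 0.50 to 7.06 at 6 days.

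The levels before and after this interval are set beside it here. The comparisons with the neighbouring time points share libraries with the present one, so no test between them is given. In ISF the mean of MSC was 1.83 GeTMM at 48 hours and 11.7 at 96 hours, and it reached 72.1 by 6 days and 168 by 10 days. BNIP3 averaged 22.8, 45.9, 181 and 566 GeTMM at the same times, and AZU1 1109.8, 362, 38.8 and 6.26. CEMIP and TNFAIP6 were highest on average at 6 days, with 46.8 and 225 GeTMM, against 33.5 and 154 at 10 days. PMAIP1 was highest at 96 hours, with 15.5, 33.3, 7.65 and 7.03 GeTMM over the 4 times. The hypoxia list mean at 10 days was 4.36 to 6.57 in 7 horses, Flash having no library there.

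In SF, 298 genes changed over the same interval (2.05% of those tested), 63 higher (0.432%) and 235 lower (1.61%). With a term for horse the SF count was 558, and it was 206 without the library of Moon at 6 days. The changes in ISF and SF come from separate libraries of the same horses. Both fluids shared 147 called genes, all in the same direction, which are 15.8% of the ISF calls and 49.3% of the SF calls. Of the 929 ISF calls, 866 had an estimate of the same sign in SF, where the median change in the ISF direction was 0.31. These genes were chosen for their change in ISF, so their sizes in the 2 fluids are not compared. The correlation of the 2 log2 fold changes was 0.51 across all 14570 genes, which are not independent replicates.

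**Figure D5:**
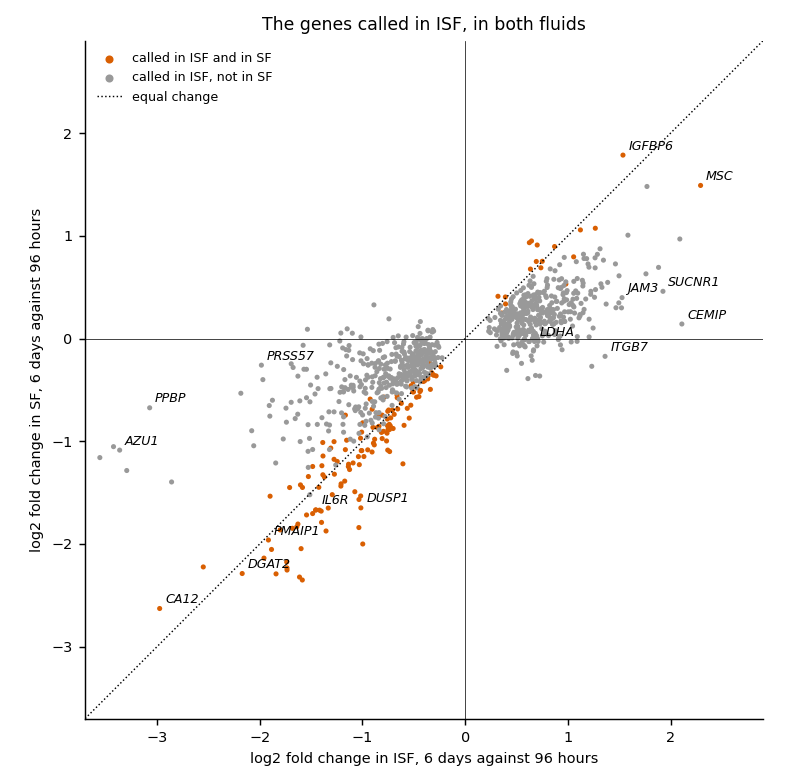
Log2 fold change from 96 hours to 6 days in SF (y axis) against that in ISF (x axis) for the 929 genes called in ISF. Orange points are the 147 genes also called in SF, and the dotted line marks equal change. CA12, DGAT2 and PMAIP1 lie near the line, while CEMIP, SUCNR1, ITGB7 and the granule genes lie away from it.

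The falls of CA12, DGAT2, PMAIP1, ILT11B, eca-mir-23a, IL6R, IL1B, CCRL2 and NCR1 were also called in SF. There CA12 changed by -2.63 (FDR = 0.000153), DGAT2 by -2.29 (FDR = 0.000348), PMAIP1 by -1.96 (FDR = 0.000352) and IL6R by -1.67 (FDR = 0.000217). MSC and IGFBP6 rose in both fluids, by 1.49 (FDR = 0.0354) and 1.79 (FDR = 0.0144) in SF, although the SF mean of MSC at 6 days was 4.41 GeTMM against 72.1 in ISF. AZU1, ELANE and MPO were not called in SF, where their changes were -1.09 (FDR = 0.46), -1.28 (FDR = 0.367) and -1.40 (FDR = 0.266). Their SF means at 6 days were 494, 326 and 177 GeTMM.

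Whether the change itself differed between the fluids was tested with an interaction term in limma, and no gene passed an FDR of 0.05, while 881 (6.05%) had an unadjusted p under 0.05. With voom on the recovered reads 0 genes passed and 777 had an unadjusted p under 0.05, and with a term for horse these counts were 0 and 1361, or 0 and 1428 without the doubted libraries. Without Moon 1 gene passed, ENSECAG00000030168, which has no symbol (difference of 0.75, FDR = 0.0402) and is named here because of that value. Among the named genes, which were chosen for their change in ISF, an unadjusted p under 0.05 was found in the limma fit for MARCKSL1 (difference of 1.15 ± 0.36 (SE), FDR = 0.749), JAM3 (difference of 1.13 ± 0.36 (SE), FDR = 0.749), SUCNR1 (difference of 1.47 ± 0.57 (SE), FDR = 0.749), PRSS57 (difference of -1.73 ± 0.71 (SE), FDR = 0.781) and CEMIP (difference of 1.97 ± 0.82 (SE), FDR = 0.781), and for ITGB7 on the integrin list (difference of 1.54 ± 0.44 (SE), FDR = 0.749).

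Of the hypoxia list 9 of 33 members, and of the glycolysis list 10 of 21, had an unadjusted interaction p under 0.05, with none past the adjustment. The median log2 fold change in SF was -0.01 for the hypoxia list and -0.03 for glycolysis. In SF 1 hypoxia member was lower, and neither list had a member called higher. With 1 horse left out the numbers with an unadjusted p under 0.05 ranged from 4 (without Catnip or Flash) to 12 (without Lurie) for hypoxia and from 7 (without Catnip, Flash or RimRun) to 13 (without Moon) for glycolysis. With a term for horse they were 10 and 11, and 13 and 13 with that term and without the doubted libraries. A difference between the fluids in these genes was therefore not shown after adjustment over all genes.

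The size of the whole change was measured per horse as the root mean square of the log2(GeTMM + 1) difference over the 14570 genes. In ISF it was 0.43 to 0.72 (median 0.55, mean 0.56 ± 0.10 SD, n = 8), lowest in Moon and highest in Dealings, whose 96 hour label is in doubt. In SF it was 0.34 to 1.53 (median 0.43), with 1.53 in Moon and at most 0.54 in the other horses. It was larger in ISF in 6 of 8 horses, but the mean difference of -0.01 was not distinguishable from 0 (exact permutation test, two-sided, p = 0.992, adjusted over 2 tests 0.992). Without Moon the mean difference was 0.14, with ISF larger in 6 of 7 horses (exact permutation p = 0.0312, adjusted 0.0625). The highest ISF values among them, in Dealings (0.72, SF 0.41) and Dreamer (0.68, SF 0.43), rest on the doubted 96 hour libraries. ISF was also larger in Catnip, Flash, Ollie and RimRun (0.50 to 0.58, SF 0.34 to 0.54), but not in Lurie (0.48, SF 0.50). Without Dealings and Dreamer, but with Moon, the mean difference was -0.11, with ISF larger in 4 of 6 horses (exact permutation p = 0.969). Leaving out Moon together with Dealings and Dreamer was not tested. Against the change in ISF from 48 to 96 hours, which shares the 96 hour libraries, the difference was -0.05 over 7 horses (exact permutation p = 0.203, adjusted 0.406), and without Dealings and Dreamer it was -0.05 over 5 horses, where the test cannot go below 0.0625.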

How the data were processed

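Total RNA of BMNC was sequenced as stranded paired-end reads. Per the labels and the study's methods, the authors trimmed reads with TrimGalore, mapped them to EquCab3.0 with STAR 2.7.2a, counted reads per gene of Ensembl, and deposited GeTMM values, an RPKM-like unit (reads per kilobase, scaled between libraries with TMM factors of edgeR) on a linear scale. The authors tested genes with DESeq2. The deposited table lists 30371 genes, of which 13157 carry no symbol and 744 share 1 of 77 symbols, so genes were handled by identifier.

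Horses pair the libraries through their names. Deviations from the group means of the same horse at 96 hours and 6 days correlated at 0.43 to 0.67 in 6 horses and at 0.01 and 0.11 in Dealings and Dreamer. No 2 libraries of a group held identical values.

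Genes at 0.5 GeTMM or more in at least 7 libraries were tested on log2(GeTMM + 1), a scale that understates changes of low genes, with limma 3.58.1 under R 4.3.3. A single linear model held the 68 libraries and 9 groups, without a horse term, and variances were moderated with a trend on mean level. Tests were two-sided with Benjamini-Hochberg adjustment over all tested genes, and a gene was called at an FDR under 0.05. Whole reads were recovered for 24065 of 24065 genes with any reads (tolerance 0.02 reads), and served for library depth and a fit with voom. One read on a gene of 1 kilobase was worth 0.0470 to 0.0813 GeTMM in the 16 libraries, so values near it rest on single reads. The steps were tested on simulated data.

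Named genes had a symbol held by 1 identifier, were called, reached a mean of 5 GeTMM in either group and moved the same way in the 6 horses other than Dealings and Dreamer (624 genes, 280 higher and 344 lower). The 15 highest and 15 lowest log2 fold changes were taken, together with every called member of a gene list, up to 4 members of each list with the smallest p, and members whose role is described. The libraries, gene lists and rules were chosen with earlier results of these data known. In the main fit, p-values rest on the spread between libraries within groups. With 1 well per horse and condition, that spread mixes differences between horses, their fluids and their wells. Libraries of the same horse are treated there as independent. In the horse-term fits, p-values rest on the spread left after the level of each horse is removed. The alternatives are given in the closing section. Sequences and coordinates were not used here.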

Additional observations from a re-analysis of the deposited data

Results flagged for a closer look

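Of 74 groups checked for a sample far from the others (Dixon's test at the 95% level, which chance passes in about 1 of 20 groups), 2 held one. In ISF at 96 hours TGM3 was at 2.21 on the log2(GeTMM + 1) scale in the library labelled Dreamer, one of those in doubt, and the nearest of the other 7 libraries was at 4.20. The root mean square change from 96 hours to 6 days in SF was 1.53 in Moon, against 0.54 in the nearest other horse, and the 6 day library of that horse has the GeTMM sum that stood apart.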

How the results depend on the processing

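The number of genes called in ISF was 929, with 413 higher and 516 lower. It came to 1552 with the replicate block for horse (724 higher, 828 lower), 1518 with the block and without the doubted 96 hour libraries (702 and 816), 2694 with the block in the 16 libraries alone (1345 and 1349), and 2186 with the block in the 12 libraries of the 6 other horses (1074 and 1112), an alternative chosen after seeing the data. It came to 1399 over the 30 cultured ISF libraries (589 and 810), 1680 without Moon's 6 day SF library (776 and 904), 2215 with library weights (1024 and 1191), and 240 with a log2 fold change of at least 1 added (71 and 169). Leaving out each horse in turn gave 422 to 1444 genes (174 to 663 higher, 218 to 781 lower). Another pseudocount, 2 other filters, another scaling, voom on recovered reads, the 16 libraries alone and the fit without the doubted libraries gave 710 to 1053. Genes differing in change between the fluids numbered 0 in each setting run except without Moon, where 1 was called, and this test cannot be made in fits of ISF libraries alone. The block in all 68 libraries ended no call of the 89 named or list genes called, and it ended 1 without the doubted libraries, 2 in the 16 libraries and 12 in the 12 libraries. Without the block, the fit of the 16 libraries alone ended 41 of the 89 calls, although it called 1053 genes. Those lost included ELANE (FDR = 0.0549), CEMIP (FDR = 0.0764), PPBP (FDR = 0.117) and EGLN3 (FDR = 0.179). Of the 30 named genes, 16 were called in each of the 22 alternatives. Over the 89 genes 1645 results kept direction and call, 312 lost the call and 0 reversed, and 32 genes kept the call in each alternative. The mean root mean square change of 0.56 was 0.90 with a pseudocount of 0.1 and 0.54 to 0.58 with 1 horse left out. The causes were not tested. The depth of 16.9M to 27.4M reads on genes leaves values near 1 read resting on single reads.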
